A study of Mus musculus with 3 samples.

Results

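Integrin, laminin and basement membrane genes were read in mouse blastocysts of young females, of aging females, and of aging females after the CXCL5-CXCR2 signal had been suppressed in culture. The genes were taken by name, from the integrin alpha and beta chains, the laminin chains, the type IV collagens, Fn1, Nid1, Nid2, Hspg2, Sparc, Agrn and Vtn. This gave 50 genes read by 79 probes, of 23458 named genes and 33759 named probes on the array. The rule names genes and uses no measured value, but this group of genes was proposed with earlier results of these data known.

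Each array held RNA of 1 pool of 30 expanded blastocysts from ICR mice, an outbred strain, and each condition had 1 array. Females of 3 to 6 weeks of age gave the young embryos, and females of 43 to 53 weeks gave those of the aging and of the suppressed aging group. By the sample labels, the females of all 3 groups were superovulated and mated, and zygotes were cultured for 96 h in KSOM medium. Only the suppressed aging embryos received an anti-CXCL5 neutralizing antibody at 10 μg/ml and a CXCR2 antagonist at 10 nM, given together, so the antibody and the antagonist cannot be told apart. With 1 pool per condition there was no replicate, no error between pools and no test, and every difference below is one between these pools. All 3 arrays were scanned once on 1 slide.

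Integrins are cell surface receptors made of an alpha and a beta chain, and they tie the extracellular matrix to the actin skeleton. Laminins are trimers of an alpha, a beta and a gamma chain. They assemble with a network of type IV collagen into a basement membrane, in which nidogens and the heparan sulfate proteoglycans perlecan and agrin link both networks. In the embryo at this stage, trophectoderm cells use integrins when they attach to the uterus, and the primitive endoderm lays down basement membrane, which its parietal descendants later thicken into Reichert's membrane.

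Levels are given as the log2 of a probe's intensity relative to the 75th percentile of its array, an intensity of 145, 155 and 122 for young, aging and suppressed aging blastocysts. The lowest level called above background was -4.20, -4.32 and -3.93. A gene is represented by its brightest probe unless another is named, and levels of different probes are not set against each other because each probe binds its target with its own strength. Among 288 to 290 probes spotted at least 5 times, the median SD between spots was 0.05 on the log2 scale on each array, but every probe of the 50 genes was spotted once.

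The embryos carried the markers of a blastocyst on every array. All 7 trophectoderm, all 6 epiblast and all 9 primitive and parietal endoderm markers were above background on the 3 arrays. Some markers of other cell types were also measured. Of the 8 cumulus and granulosa markers, Foxl2, Cyp19a1, Amhr2 and Star were above background on all arrays and Fshr, Has2, Ptx3 and Inha on none. Of the 6 fibroblast and endothelium markers, Col1a1, Col1a2, Pecam1 and Cdh5 were above background on all arrays and Col3a1 and Dcn on none. Of the 5 blood markers, Itgam, Cd68 and Hba-a1 were above background on all arrays, Hbb-b1 on the aging array and Ptprc, the defining antigen, on none. In whole embryos, fewer cells of a type and less RNA per cell cannot be told apart.

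Of the 50 genes, 31 (62%) had a probe above background on all 3 arrays, 4 on some of them and 15 (30%) on none. Among all named genes the shares were 59.0% on all arrays and 29.2% on none. Matrix genes were measured more often than their receptors, with 9 of 11 laminins and 6 of 7 linkers and other matrix proteins on all arrays. Of the 26 integrins, 14 were above background on all arrays, and of the 6 type IV collagens only Col4a1 and Col4a2 were.

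The 15 genes above background on no array included receptors and matrix genes. They were Itga7 of the laminin receptors, Itga8, Itgb6 and Itgb8 of the receptors for the RGD motif, and Itga2 of the collagen receptors. Itga4 and Itga9, which bind fibronectin, VCAM-1 and other ligands, were also below background, as were Itgad and Itgax of the leukocyte integrins. Among matrix genes, Lamb3, Lamc3, Col4a3, Col4a5, Col4a6 and Vtn, which encodes vitronectin, gave no measurable level.

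**Figure D1:**
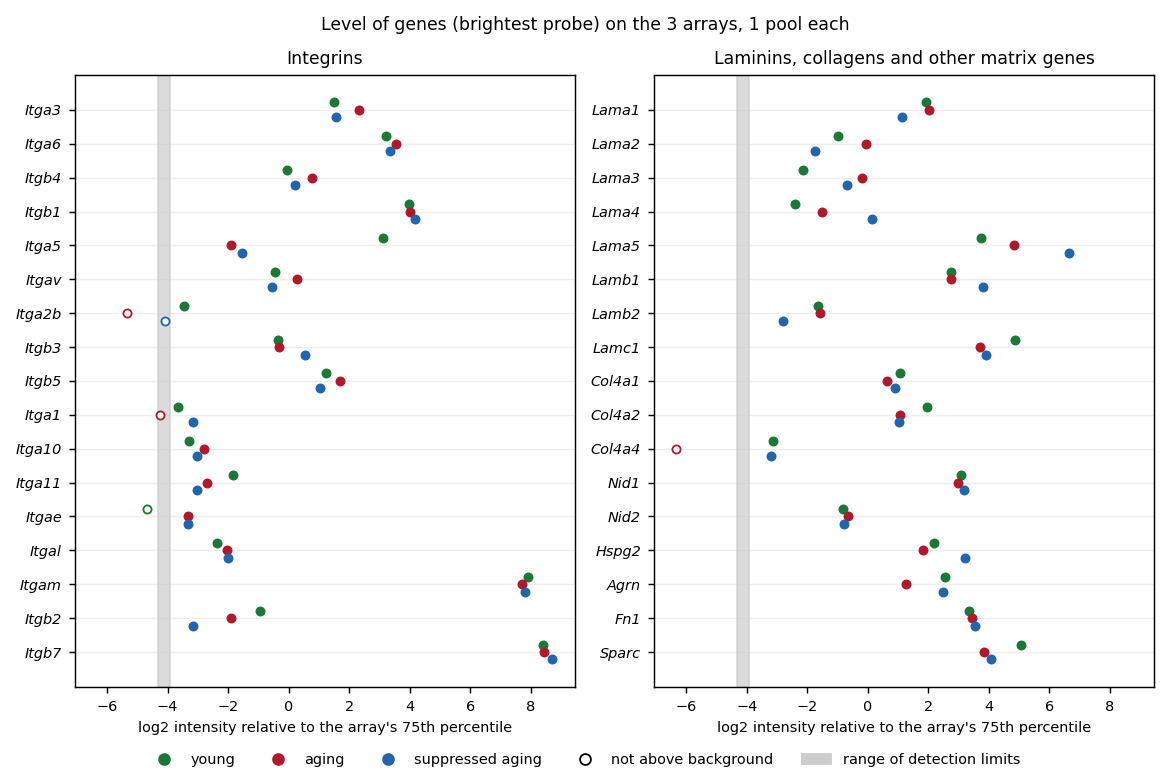
Log2 level of the brightest probe of genes above background on at least 1 array, with integrins on the left and matrix genes on the right, as points for the young, aging and suppressed aging array (1 pool each, open points not above background, grey band the range of the detection limits). Itga5 stood at 3.12 on the young array against -1.92 and -1.54 on the others, and Lama5 ran from 3.75 to 4.83 and 6.65.

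Promoter windows of 300 bases, from 250 bases before to 50 after the annotated start, were held in a RefSeq table of build GRCm38.p6 for 33 of the genes, in 37 windows. Shown here are the windows of Itga5 and Lama5, since these genes had the largest measured difference among the integrins and among the matrix genes, and that of Col4a2, since it overlaps the window of its partner Col4a1. The Itga5 window is chr15:103366742-103367041 (minus strand), the Lama5 window chr2:180225810-180226109 (minus strand) and the Col4a2 window chr8:11312555-11312854 (plus strand). In the windows of Itga5 and Lama5, capitals mark the GC box, GGGCGG on either strand. In the Col4a2 window, capitals mark the 78 bases that also lie in the Col4a1 window.
Itga5: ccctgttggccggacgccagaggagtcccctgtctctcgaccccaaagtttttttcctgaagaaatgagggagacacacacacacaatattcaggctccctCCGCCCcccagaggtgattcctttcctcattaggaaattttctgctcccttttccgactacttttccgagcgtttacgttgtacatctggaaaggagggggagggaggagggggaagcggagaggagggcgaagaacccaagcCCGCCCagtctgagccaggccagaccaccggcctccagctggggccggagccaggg
Lama5: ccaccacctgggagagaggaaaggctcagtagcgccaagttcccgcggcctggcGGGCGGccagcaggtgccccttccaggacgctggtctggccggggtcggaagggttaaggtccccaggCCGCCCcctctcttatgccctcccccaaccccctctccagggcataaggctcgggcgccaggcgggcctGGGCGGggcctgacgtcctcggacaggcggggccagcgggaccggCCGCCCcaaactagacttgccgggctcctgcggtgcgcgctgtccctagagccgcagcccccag
Col4a2: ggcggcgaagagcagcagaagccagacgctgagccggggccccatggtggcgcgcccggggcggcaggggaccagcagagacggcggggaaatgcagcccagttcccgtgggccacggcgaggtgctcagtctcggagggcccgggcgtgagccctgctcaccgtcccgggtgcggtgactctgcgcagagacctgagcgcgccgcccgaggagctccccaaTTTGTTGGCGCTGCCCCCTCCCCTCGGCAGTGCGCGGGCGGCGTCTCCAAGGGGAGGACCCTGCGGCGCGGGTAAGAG

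The Itga5 window held 2 GC boxes at 58.7% G and C, the Lama5 window 4 at 72.7%, and the Col4a2 window 3 at 73.7%. A GC box stood in 20 of the 37 windows (54.1%), against 35.7% of all 32851 windows of that length. TATAAA was found in 1 of the 37 (2.70%) against 13.6% of all windows, and CCAAT in 8 (21.6%) against 37.4%. Each motif was searched on both strands and counted separately, whether or not it overlapped another. These matches describe the letters in the windows.

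Aging blastocysts were compared with young ones, to ask which of these genes differed with the age of the mother. Of 35 genes that could be compared, 2 were over 2-fold higher in the aging pool (Lama3 and Lama5, 5.71%) and 5 were over 2-fold lower (Itga5, Lamc1, Agrn, Sparc and Col4a4, 14.3%). Over all 16164 named genes that could be compared, 9.86% were over 2-fold higher and 9.19% lower. The median difference was 0.05 over the members and 0.03 over all genes. The share of higher genes among those past the threshold was 28.6%. It was 44.4% at 1.5-fold, 0% at 5-fold, where 1 gene passed, and 66.7% with the second brightest probe, where 3 of 13 did. Among the 17 integrins compared, Itga5 alone passed 2-fold, whereas 6 of the 18 matrix genes did.

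Suppressed aging blastocysts were compared with untreated aging ones, to ask what differed after the treatment. Of 34 genes, 7 were over 2-fold higher (Lama4, Lama5, Lamb1, Hspg2, Agrn, Col4a4 and Itga1, 20.6%) and 3 lower (Lama2, Lamb2 and Itgb2, 8.82%), against 8.77% and 8.50% of all 15875 genes. Of the 10 genes past 2-fold, 8 were matrix genes, which made up 18 of the 34 genes compared. The median difference was 0.07 over the members and -0.00 over all genes. After another background correction (normexp) 3 genes passed 2-fold, all higher, so the share of higher genes was 100% in place of 70%. That correction adds an offset of 50 to each signal, which by construction shrinks the log2 differences of dim probes of any gene. With it the shares over all genes were 2.46% higher and 2.29% lower. The share of higher genes was 57.1% with the mean over probes, 53.3% at 1.5-fold and 50% with the second brightest probe, where 2 genes passed.

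Against the young pool, 5 of 35 genes were over 2-fold higher in the suppressed aging pool (Lama3, Lama4, Lama5, Lamb1 and Hspg2, 14.3%) and 5 lower (Itga5, Itga11, Itgb2, Lamb2 and Sparc, 14.3%), against 8.67% and 7.64% of all 15931 genes. All 5 higher genes encode matrix proteins, and 3 of the 5 lower genes were integrins, where 18 matrix genes and 17 integrins were compared. The share of higher genes among those past 2-fold was 50%, and it was 40% after normexp, 37.5% after quantile normalization and 33.3% with the values that the authors scaled. It was 61.5% without a filter on dim probes and 66.7% at 5-fold, where 3 genes passed. Over all genes, normexp left 2.35% higher and 2.27% lower. The 3 comparisons share arrays, so none is independent of the others.

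**Figure D2:**
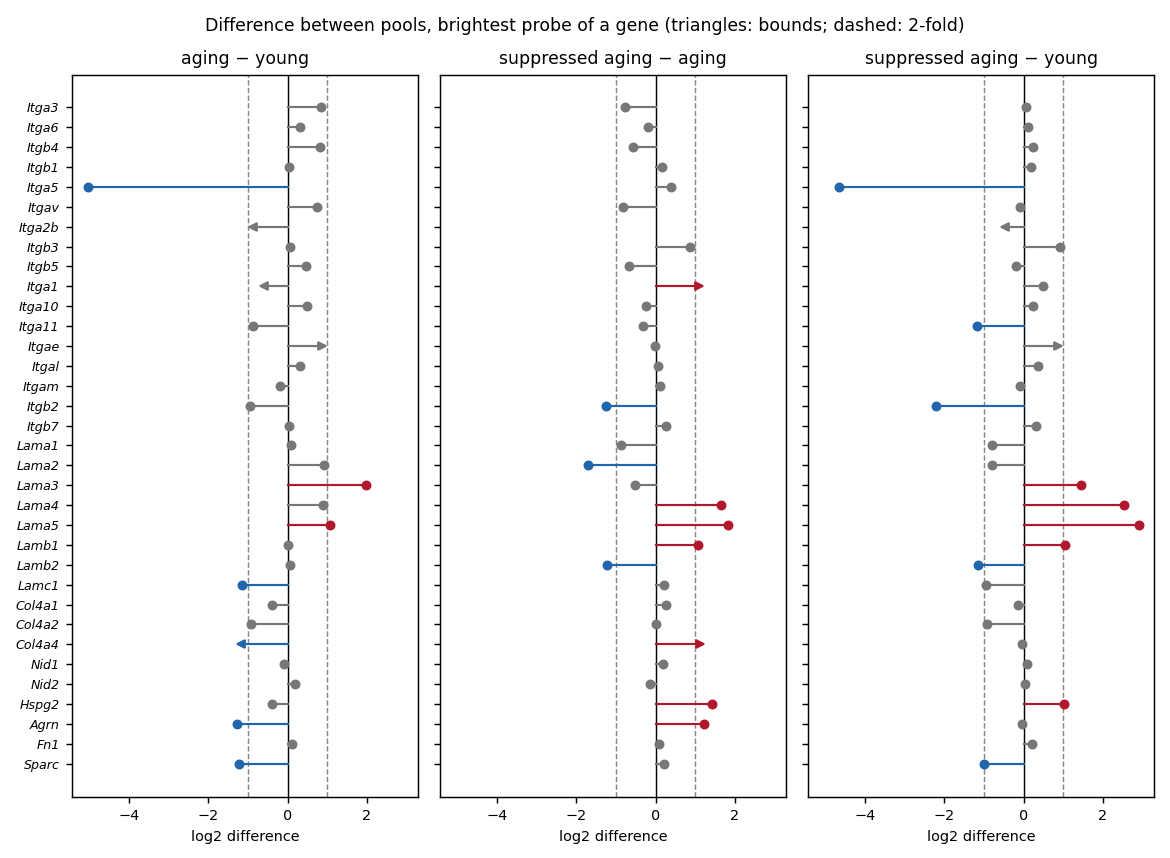
Log2 difference of the brightest probe of the same genes between the pools, in 3 panels for aging minus young, suppressed aging minus aging and suppressed aging minus young. Red and blue mark differences over 2-fold (dashed lines) and triangles bounds from a gene above background on only 1 of the arrays, and Itga5 reaches -5.04 and -4.66 against the young pool while Lama5 lies to the right in every panel.

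Itga5, the alpha chain of the main fibronectin receptor, had the largest difference among the genes compared. Its single probe read intensities of 1260 in young, 40.9 in aging and 42.1 in suppressed aging blastocysts, or levels of 3.12, -1.92 and -1.54. It was 32.9-fold lower in the aging than in the young pool (log2 difference -5.04) and 25.3-fold lower in the suppressed aging pool (-4.66). The aging pools differed from each other by only 0.38, so the young array stood alone. With normexp the difference from young was -3.64 and -3.29, and no second probe was there to check it.

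The chains that bind the RGD motif beside Itga5 differed less. Itgav, the alpha chain of the vitronectin receptors, stood at -0.45 in young, 0.29 in aging and -0.55 in suppressed aging blastocysts, and Itgb5, one of its partners, at 1.23, 1.69 and 1.03. Both were highest in the aging pool and within 2-fold throughout. Itgb3, another partner of Itgav, was read differently by its probes. The brighter gave -0.36, -0.32 and 0.54, and the other gave 0.03, -1.70 and -1.56, which was lower by 1.72 in the aging and by 1.59 in the suppressed aging pool than in the young. Itga2b, the platelet partner of Itgb3, was above background on the young array only, at -3.45.

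Itgb1, the chain shared by most matrix-binding integrins, was level across the pools. Its brighter probe read 3.98 on the young array, was 0.03 higher on the aging array and read 4.16 after suppression, and its second probe read 1.65, 0.98 and 1.81, lowest in the aging pool. No probe of Itgb1 differed by 2-fold. The fibronectin gene Fn1, which encodes the ligand of Itga5 with Itgb1, stood at 3.33, 3.45 and 3.54, and its other probes read 0.73, 0.01 and 0.67, and 0.11, 0.43 and -0.10. The 3 probes of Fn1 thus gave 3 different orders of the pools, each within 2-fold.

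The laminin receptors stayed within 2-fold by every probe. Itga6, which pairs with Itgb1 or Itgb4 and is the laminin receptor of many epithelia, had levels of 3.23 in young, 3.55 in aging and 3.34 in suppressed aging blastocysts, and its other probes read 2.97, 2.84 and 2.89, and -1.18, -1.36 and -0.79. Itgb4, the hemidesmosome chain, was higher in the aging pool, at 0.76, than in the young, at -0.05, or the suppressed aging, at 0.20. For Itga3, another laminin receptor of epithelia, the probes opposed each other, with 1.498, 2.33 and 1.56 by the brighter and 1.66, 0.86 and 1.52 by the other. The aging pool was thus either the highest or the lowest for Itga3, by 0.83 or by -0.80 against young.

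Collagen-binding chains were dim, and of those measured Itga1 lay nearest the detection limit. Itga11 was highest in the young pool, at -1.83 against -2.70 in the aging and -3.01 in the suppressed aging pool, a log2 difference of -1.19 between the last and the first, which was -0.21 with normexp. Itga10 stood at -3.29, -2.79 and -3.05, and its second probe was above background on the suppressed aging array only. Itga1 was above background on the young array, at -3.65, and on the suppressed aging array, at -3.16, but not on the aging array, which put it at least 1.09 higher after suppression than without, a bound that was 0.38 with normexp. Its second probe was above background in the suppressed aging pool only, at least 1.64 above the aging pool.

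Among the leukocyte integrins, Itgb2, the common beta chain of this group, was highest in the young and lowest in the suppressed aging pool, at -0.95 in young, -1.91 in aging and -3.16 in suppressed aging blastocysts. The suppressed aging pool was lower than the young by 2.21 and than the aging pool by 1.25 on the log2 scale. With normexp these differences were -0.78 and -0.29, neither past 2-fold. Itgal, a partner of Itgb2, had levels of -2.36 and -2.05 in young and aging blastocysts and was 0.05 higher after suppression, and Itgae, which pairs with Itgb7 and binds E-cadherin, was above background on the aging and suppressed aging arrays, at -3.33 and -3.34. Neither followed Itgb2. Of the 5 blood markers, which include Itgam itself, 3 were above background on all arrays. The summed level of the 5 was 7.95, 7.74 and 7.84, which was set by the bright probe of Itgam at 7.91, 7.71 and 7.82. Cd68 of macrophages read 2.30, 1.37 and 0.80, the same order as Itgb2, Hba-a1 read -0.36, 0.55 and -1.14, Hbb-b1 was above background on the aging array only, and Ptprc on none. The part of blood cells in the Itgb2 difference was not tested.

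Itgam and Itgb7 were each read by a bright and a dim probe. Itgam gave 7.91, 7.71 and 7.82 by its first probe, while its second was above background on no array. For Itgb7 the bright probe read 8.41, 8.45 and 8.71, and the second read -1.93, -0.91 and -1.24. Both bright probes varied by no more than 0.30 between pools, whereas the dim probe of Itgb7 was higher by 1.02 in the aging than in the young pool. Which of the probes followed the transcript could not be told from the files.

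Lama5, the most widespread laminin alpha chain of basement membranes, was highest in the suppressed aging pool. Its single probe read intensities of 1950, 4395 and 12262 on the young, aging and suppressed aging array, or levels of 3.75, 4.83 and 6.65. It was 2.11-fold higher in the aging than in the young pool, 3.52-fold higher in the suppressed aging than in the aging pool, and 7.45-fold higher in the suppressed aging than in the young pool. Here the suppressed aging pool lay farther from the young pool than the untreated aging pool did. The log2 differences were 1.07, 1.73 and 2.81 with normexp.

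Lama4, an alpha chain known from vessel walls, had the same order, with -2.40, -1.50 and 0.14. It was 3.13-fold higher in the suppressed aging than in the aging pool and 5.81-fold higher than in the young pool, a log2 difference of 2.54 that was 1.30 with normexp. A second probe of Lama4 was above background on no array. Lama3, the alpha chain of an epithelial laminin of hemidesmosomes, was instead highest in the aging pool, at -0.18 against -2.14 in the young and -0.69 in the suppressed aging pool. The second Lama3 probe gave this order too. It was not above background on the young array and read -2.42 and -3.64 on the others, so it was at least 1.61 higher in the aging than in the young pool, beside 1.96 by the first probe, which was 1.01 with normexp. The first probe was 1.45 higher in the suppressed aging than in the young pool, and 0.58 with normexp.

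The remaining alpha chains were lowest after suppression. Lama2, the chain of the muscle laminin, read -0.97, -0.05 and -1.76, which was lower by 1.71 in the suppressed aging than in the aging pool (-0.87 with normexp, within 2-fold), and its second probe was above background on no array. Lama1, the chain of the first laminin of the embryo, read 1.92, 2.01 and 1.12. The alpha chains therefore differed among themselves in direction, with Lama4 and Lama5 higher and Lama1, Lama2 and Lama3 lower in the suppressed aging than in the aging pool, and only Lama2, Lama4 and Lama5 past 2-fold.

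Lamc1, the gamma chain shared by most laminins, was lower in the aging pool by both of its probes. The brighter read 4.86, 3.71 and 3.92 and the other 2.53, 1.56 and 2.49, so the aging pool was lower than the young by 1.15 and by 0.98. They parted in the suppressed aging pool, which was lower than the young by 0.94 with the first probe and by 0.04 with the second.

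Lamb1, the usual beta chain, depended on the probe. The brightest read 2.76, 2.75 and 3.80, higher by 1.05 in the suppressed aging pool than in either of the others. With normexp this was 0.89 against the aging and 0.93 against the young pool. The other probes read 2.75, 2.56 and 2.68, and 1.38, 0.99 and 1.27, with no such difference. Lamb2, the beta chain of muscle and kidney laminins, had 1 probe and read -1.64, -1.57 and -2.80, which was lower by 1.24 in the suppressed aging than in the aging pool and by 1.16 than in the young. With normexp these differences were -0.42 and -0.40, within 2-fold.

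**Figure D3:**
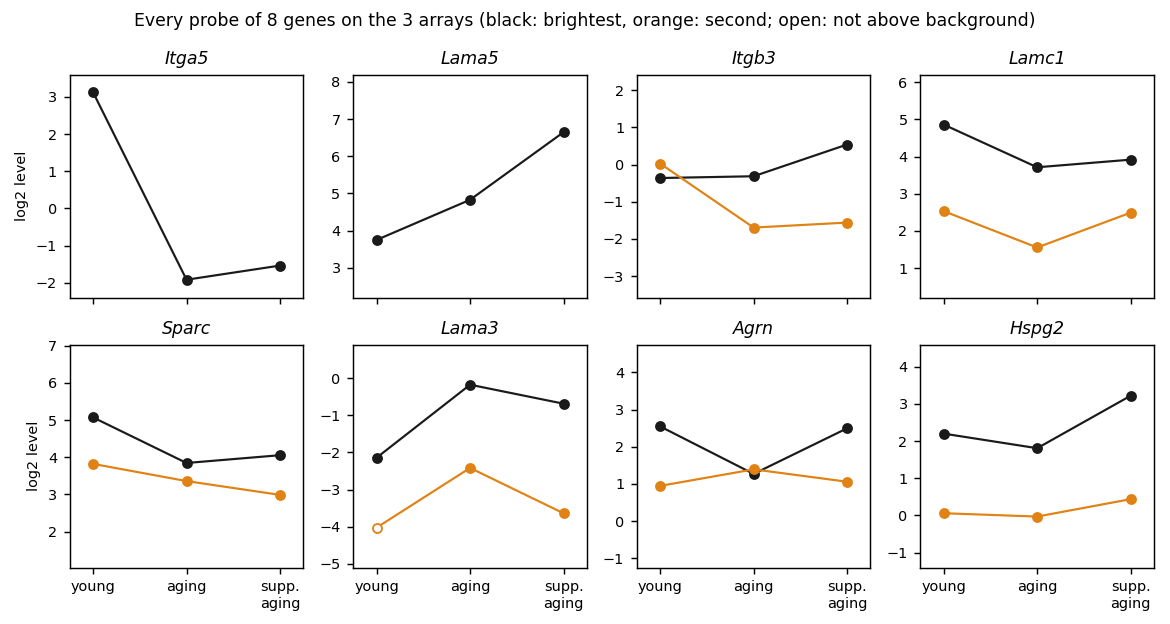
Log2 level on the young, aging and suppressed aging array of every probe of 8 genes, with the brightest probe in black, a second probe in orange and open points where a probe was not above background (lines join the points of a probe, and the vertical scales differ). Lamc1 was lower in the aging than in the young pool by both probes, by 1.15 and 0.98, while the probes of Agrn crossed.

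The type IV collagen genes lie in neighbouring pairs, Col4a1 with Col4a2 on chromosome 8, Col4a3 with Col4a4 on chromosome 1 and Col4a5 with Col4a6 on chromosome X. The annotated starts of Col4a1 and Col4a2 are 21 bases apart on opposite strands, within the shared capitals of the window above. These chains form the main collagen of basement membranes. Col4a1 read 1.05, 0.64 and 0.91 and Col4a2 read 1.96, 1.05 and 1.04 in young, aging and suppressed aging blastocysts. Both were lower in the aging than in the young pool, by 0.40 and by 0.91, but within 2-fold. In the suppressed aging pool Col4a1 stood 0.27 above and Col4a2 level with the aging pool. Col4a4, of the pair best known from the kidney, was near the detection limit at -3.15 and -3.20 on the young and suppressed aging arrays and not above background on the aging array, which was at least 1.17 below the young level. With normexp this bound was -0.34, and that between the suppressed aging and the aging pool, 1.12, was 0.49.

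Hspg2, which encodes perlecan, was highest in the suppressed aging pool, at 3.22 against 2.20 in the young and 1.81 in the aging pool. Its second probe had the same order with smaller steps, at 0.06, -0.03 and 0.44. The difference between the suppressed aging and the aging pool was 1.41 by the first and 0.47 by the second probe. Against the young pool the first probe was 1.02 higher, and 0.70 with normexp. Agrn, which encodes agrin, was lowest in the aging pool by its brighter probe, at 2.55, 1.27 and 2.50, and highest there by the other, at 0.95, 1.39 and 1.06. With normexp the brighter probe differed by 0.88 between the suppressed aging and the aging pool. Nid1, the main nidogen, read 3.08, 2.98 and 3.16, with 1.53, 2.01 and 2.02 by its second probe, and Nid2 read -0.83, -0.65 and -0.80. The nidogens were thus level within 2-fold by every probe.

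Sparc, a collagen-binding glycoprotein that is abundant in parietal endoderm, was highest in young blastocysts by both probes. The brighter read 5.07, 3.85 and 4.06 and the other 3.82, 3.36 and 2.99. The aging pool was lower than the young by 1.23 and by 0.46, and the suppressed aging pool was lower than the young by 1.02 and by 0.83. Of the members lower in the aging pool by 2-fold, Sparc and Lamc1 were those with a second probe in the same direction.

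Primitive endoderm and its parietal derivative are the source of much of this matrix, and their 9 markers were measured beside it. Their summed level was 6.00 in young, 6.15 in aging and 5.86 in suppressed aging blastocysts, most of it from Dab2 at 5.46, 5.58 and 5.33. Sox17 was lower by 1.53 in the aging than in the young pool, whereas Pdgfra was higher by 1.28, Gata6 by 0.99 and Dab2 by 0.12. Between the suppressed aging and the aging pool the median of the markers was -0.69, against -0.00 for all genes, with Amn lower by 1.08 and Foxa2 at -0.99 against 1.01. In that comparison Sox17 and Cubn were instead higher, by 0.89 and 0.22, and Gata4 differed by -0.02. The part of endoderm cell number in the matrix differences was not tested. The fibroblast and endothelium markers had summed levels of -0.19, 0.05 and 0.30. Among them Col1a1 was 2.08 higher in the aging than in the young pool and lower by 1.77 in the suppressed aging than in the aging pool. Col1a2, Pecam1 and Cdh5 went the other way in both comparisons, with -0.24, -0.09 and -0.87 and then 0.54, 0.84 and 0.83. The cumulus and granulosa markers had summed levels of 8.67, 8.55 and 8.78, which were set by Foxl2 at 8.66, 8.54 and 8.77. Among them Amhr2 was 1.07 higher in the aging than in the young pool, whereas Cyp19a1, Foxl2 and Star differed by -0.13, -0.12 and -0.03. The part of these cells was not tested.

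For genes with 2 probes above background on both arrays, the second probe was set beside the first. In aging against young blastocysts 5 of 12 member genes had the same direction by both (41.7%), against 56.7% of 4856 named genes. The shares were 8 of 13 (61.5%) against 54.9% for suppressed aging and aging, and 6 of 12 (50%) against 56.0% for suppressed aging and young. In each comparison 3 of these genes passed 2-fold by the brightest probe, 2 of the 3 kept the direction in the second probe, and 0 passed 2-fold by it. Over all named genes, 136 of 669, 103 of 567 and 94 of 558 did so. Both the direction and the size of a difference in these pools thus often depended on the probe, for the members as for the array as a whole.

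**Figure D4:**
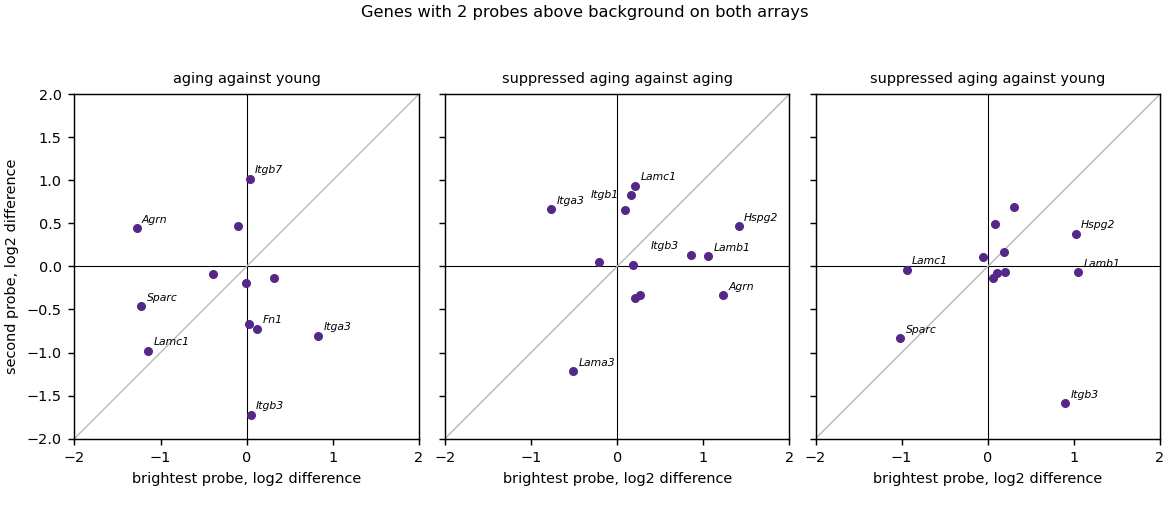
Log2 difference by the second brightest probe (vertical) against that by the brightest probe (horizontal) for member genes with both above background, in 3 panels for the 3 comparisons, with equal values on the grey diagonal. Lamc1 and Sparc lie in the lower left for aging against young, and Agrn and Itga3 where the signs are opposite.

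The proteins that join integrins to the actin skeleton were measured more fully than the integrins, with 22 of 25 genes above background on all arrays. In aging against young blastocysts 0 of 23 were over 2-fold higher and 2 lower, Parvb, a parvin of the integrin-linked kinase complex, by 1.15 and Lims2, its PINCH adaptor, by at least 1.16. In suppressed aging against aging blastocysts 3 of 22 were higher and 0 lower. These were Ptk2, which encodes focal adhesion kinase, by 1.05, Bcar1, its scaffold p130Cas, by 1.94, and Tns1, a tensin, by 1.33. Against the young pool Bcar1 alone of 23 was over 2-fold higher in the suppressed aging pool, by 2.30. The shares over all genes were 9.86% and 9.19%, 8.77% and 8.50%, and 8.67% and 7.64% in these comparisons. The median of this list was -0.02 in suppressed aging against aging and -0.03 in suppressed aging against young blastocysts.

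Of 14 other matrix receptors, Dag1, which encodes the laminin receptor dystroglycan, was level at 3.39, 3.51 and 3.52. In the aging pool, Sdc1, a syndecan, was higher than in the young by 1.71 and Bcam, a receptor of Lama5-bearing laminins, by 1.17, whereas Sgce, a sarcoglycan, was lower by 1.92 and Ddr2, a collagen receptor, by 1.17. In the suppressed aging pool Sdc2 was higher than in the aging pool by at least 1.83, and Bcam and Gpc3, a glypican, were lower by at least 1.42 and 2.38. Lama5 and its receptor Bcam had opposite differences between the suppressed aging and the aging pool. Both were higher in the aging than in the young pool, by 1.08 and 1.17. Bcam was dim, at -3.68 and -2.51 on the young and aging arrays and not above background on the suppressed aging array. In aging against young blastocysts 2 of 12 of these receptors were over 2-fold higher and 2 lower, against 9.86% and 9.19% of all genes. For suppressed aging against aging 1 of 13 was higher and 2 lower, against 8.77% and 8.50%. Against the young pool 2 of 12 of these receptors were over 2-fold higher in the suppressed aging pool and 4 lower, where 8.67% and 7.64% of all genes were.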

How the data were processed

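The deposited scanner files give a linear intensity per spot, from which Agilent Feature Extraction 12.0.3.1 had subtracted background and spatial trends. Arrays had not been normalized to each other. Their value table holds the same intensity times 1 factor per array (3.46, 3.34 and 3.96 for young, aging and suppressed aging blastocysts), and 0 of its columns were left unused. The methods describe single-primer global PCR and the labels a cRNA kit, and neither can be read from the files.

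Spots marked as outliers (100, 85 and 118) were left out, no spot was saturated, spots of a probe were averaged on the log2 scale, and each array was centred on its 75th percentile. The scanner software called 58.4%, 58.7% and 56.4% of probes above background. RefSeq accessions of the probes were matched to a gene table of GRCm38.p6, which named 33759 of 56591 probes. The array design names an older build, so no probe coordinates are given. A gene above background on 1 of the arrays compared gives a bound from the other's detection limit, and none where the bound had the opposite sign.

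Members are named, and of the other lists the genes over 2-fold apart and the defining markers. Members and lists were chosen with earlier results of these data known. No test or P-value was computed. The number of arrays limits the precision. The procedure was tested on simulated data. Some genes that enter the counts are not reported here by name. Alternatives were normexp (limma 3.58.1, offset 50, median spot signal), quantile normalization, centring on 15 housekeeping genes, the authors' values, outlier spots kept, other choices of probe and filter, and thresholds of 1.5-fold and 5-fold. Python 3.11.15, NumPy 2.4.6, pandas 2.3.3, Matplotlib 3.10.9 and R 4.3.3 were used.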

Additional observations from a re-analysis of the deposited data

How the results depend on the processing

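No paired analysis was possible because the conditions had a single array each, and no replicate could be left out. Of the 27 member differences over 2-fold, all 27 kept their direction under normexp, quantile normalization, housekeeping centring, the authors' values, outlier spots kept and the mean over probes, and 13, 24, 27, 25, 27 and 18 of them stayed over 2-fold. Leaving out bounds or the filter does not alter the 24 differences measured on both arrays. Where 1 probe alone gave a difference, the mean over probes could not change it. With the second brightest probe 12 could be recomputed, of which 9 kept their direction, 3 reversed and only 2 stayed over 2-fold. Of the reversed, Agrn was 0.44 in the aging relative to the young pool and -0.33 in the suppressed aging relative to the aging pool. Lamb1 was -0.068 in the suppressed aging relative to the young pool. Comparisons are given in the order in which they were described, where the counts over 2-fold were 7 of 35, 10 of 34 and 10 of 35. With the second probe fewer members could be compared, and the counts were 3 of 13, 2 of 15 and 2 of 15. The counts were 1, 0 and 3 at 5-fold, and 18 and 16 at 1.5-fold for the first and the last. Over all genes, the shares higher and lower were 10.5% and 11.6%, 11.6% and 9.21%, and 10.0% and 8.55% with the second probe, 1.31% and 1.28%, 1.35% and 0.939%, and 1.38% and 1.05% at 5-fold, and 20.3% and 18.2%, and 18.3% and 16.0% at 1.5-fold. Under normexp the counts of members were 3 and 5 for the second and the last. Without a filter on dim probes 12 of 50 genes passed in the first, against 10.0% and 11.3% of all genes. The medians of the members were then -0.11, 0.22 and 0.13, beside -0.11, 0.13 and 0.07 over all genes. The median of the first was -0.19 with the second probe, beside -0.02 over all genes. That of the last was -0.024 with the mean over probes, beside 0.03 over all genes. Under normexp the added offset shrinks the differences of dim probes by construction. The cause of the changes in the other settings was not tested. Genes above background on all arrays numbered 31, 28 when 2 times the detection limit was required and 26 when every probe had to pass. Levels near the detection limit, as for Itga1, Itga10 and Col4a4, and for Itga11 in the suppressed aging pool, give bounds or coarse values only.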

Other observations

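Enzymes that modify, fold or cross-link matrix proteins included several that differed between the pools. In aging blastocysts the collagen prolyl hydroxylases P4ha1 and P3h1 were lower than in young ones, by 1.01 and 1.32. Pomt2, which starts the sugar chain through which dystroglycan binds laminin, read 0.23, -3.77 and 1.73 on the young, aging and suppressed aging array. The log2 difference was -4.003 between the aging and the young pool and 5.51 between the suppressed aging and the aging pool. Both rest on the aging level, which lay near the detection limit of that array, -4.32, so their size is uncertain. The lysyl oxidase Loxl1 was above background on the suppressed aging array only, at least 1.58 above the aging pool. Serpinh1, the collagen chaperone, was level at 2.06, 2.03 and 1.75.

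Of 20 other matrix proteins, Npnt, which encodes the integrin ligand nephronectin, Spp1, which encodes osteopontin, and Egfl6 were over 2-fold higher in the suppressed aging than in the aging pool, by 2.47, by 1.36 and by at least 2.29, and 0 of 12 were lower, against 8.77% higher and 8.50% lower over all genes. Spp1 read 0.58, 1.54 and 2.89, and Npnt was not above background on the young array and read -4.11 and -1.64 on the others. In aging against young blastocysts Fbln5, a fibulin of elastic fibres, was higher by 1.96, and Fras1, a protein of epithelial basement membranes, was lower by at least 1.68. Against the young pool 5 of 13 were over 2-fold higher in the suppressed aging pool, Npnt, Frem2, Fbln5, Spp1 and Egfl6, and Fras1 was lower, against 8.67% and 7.64% over all genes.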
